A study of Mus musculus with 8 samples.

Results

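The mRNAs of 46 mouse translation factors were followed in oocytes with and without BAF250a. The 46 genes are a named list of initiation, elongation and release factors, matched by symbol in a table of 54838 gene entries. All 46 were found and all 46 had enough reads to be tested. They were grouped here by role. A group of 7, with Eif1ad placed in it, stands for the ternary complex and start codon selection. The others are 5 subunits of eIF2B, 13 subunits of eIF3, and 9 cap-binding, scaffold and helicase factors of the eIF4 group. There are also 2 eIF4E-binding proteins, 2 factors of subunit joining, 6 elongation factors and 2 release factors. The study sequenced total RNA from C57BL/6 mouse oocytes in 8 libraries of 5 to 10 oocytes each. Control oocytes carried the genotype wildtype. Knockout oocytes carried the genotype BAF250aGKO, in which Gdf9-cre, a recombinase made in growing oocytes, removes BAF250a, the product of Arid1a, which binds DNA within the SWI/SNF-type chromatin remodeller BAF. Each genotype was sampled at the germinal vesicle (GV) stage, when the fully grown oocyte is arrested in prophase, and at metaphase of the second meiotic division (MII), the mature egg, with 2 libraries in each of the 4 groups. The sources used here give no age for the mice, and nothing says that the libraries of a group came from separate animals, so p-values measure the spread between these libraries, which may be technical.

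Translation starts when eIF2 brings the initiator tRNA to the small ribosomal subunit, where eIF1, eIF1A, eIF3 and eIF5 also bind. eIF2B recharges eIF2 with GTP, and phosphorylation of eIF2 blocks that step. The cap complex eIF4F, made of the cap-binding protein eIF4E, the scaffold eIF4G and the helicase eIF4A, recruits the mRNA, and the eIF4E-binding proteins (4E-BPs) hold eIF4E back until mTOR phosphorylates them. eIF5B joins the large subunit, eEF1 and eEF2 drive elongation, and eRF1 with eRF3 releases the finished protein. A fully grown oocyte is transcriptionally silent and matures on stored mRNAs, many of which are adenylated and translated, or deadenylated and degraded, between GV and MII.

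The libraries held 19587421 to 33289150 reads in genes, and replicates correlated across genes at 0.926 to 0.962 (log2 scale). Arid1a, the targeted gene, had 380 and 458 CPM (reads relative to library depth, scaled between libraries) in GV controls against 4.87 and 12.9 CPM in GV knockouts. At MII it stood at 1620 and 1290 CPM in control and at 33.0 and 21.7 CPM in knockout oocytes, so at each stage both knockout libraries lay below both controls. All 12 oocyte markers, among them Gdf9 and the zona pellucida genes, were detected in every library, with summed levels of 38000 to 44700 CPM at GV and 19600 to 22500 CPM at MII. CPM of the cell type markers, singly and summed, were not scaled between libraries. Of the 16 granulosa and cumulus markers, 7 to 14 had reads in a library. At GV their summed level was 161 and 127 CPM in controls against 65.4 and 86 CPM in knockouts, and at MII 149 and 148 CPM against 119 and 103 CPM. At MII 12 of the 16 had a lower mean in knockout than in control oocytes and 3 a higher one, among them Kitl (7.6 and 2.67 CPM against 0.461 and 1.78 CPM). Cyp19a1 alone gave 87.5 and 74.8 CPM of the control and 63.4 and 57 CPM of the knockout sums at MII, and at most 35.7 CPM in a GV library. Foxl2, Fshr, Inhba, Ptgs2 and Amhr2 were at 0 in both knockout MII libraries. Of these, Foxl2 (1.08 and 0.336 CPM) and Inhba (4.15 and 2.08 CPM) had reads in both MII controls. Ptgs2 had reads only in control MII library b (2.93 CPM) and Amhr2 only in library a (0.0769 CPM). Fshr was at 0 in both MII controls too. The 12 blood and immune markers summed to between 2.85 and 8.53 CPM in 7 libraries and to 52.2 CPM in control MII library b. In library b Cd74 gave 36.8 CPM and Cd52 10.2 CPM. Cd52 also stood at 4.15 CPM in control MII library a, and at 0 in both knockout MII libraries. Laptm5 (2.04 and 2.56 against 2.79 and 4.99 CPM) and Hba-a1 (0 and 0 against 0 and 0.243 CPM) were higher in knockout than in control MII oocytes by their means. Ptprc and Lyz2 were at 0 in every library. All values are relative to the other mRNAs of a library, and the amount of RNA per oocyte was not measured. For the somatic markers, fewer cells and less RNA per cell cannot be told apart.

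The 46 genes together took 1.02% and 1.07% of the gene reads of GV controls and 0.967% and 0.941% of those of GV knockouts. At MII they took 0.756% and 0.811% in controls and 0.811% and 0.784% in knockouts. Their share was lower in every MII library than in every GV library. Per exon length, on the RPKM scale (reads per kilobase of exon and library depth), the highest mean level in control GV oocytes belonged to Eif5a at 542. Eif5a encodes the factor that eases ribosomes through difficult stretches such as runs of proline. Eif2b1 and Eef1a1 followed at 288 RPKM each, then Eif1 at 249 and Eif6 at 209. The lowest was Eif1a at 0.904 RPKM. In knockout GV oocytes Eef1a1 came highest at 680 RPKM, and the individual libraries stood at 928 and 431. At MII the order was different. Eif1, which guards the choice of the start codon, was highest in both genotypes, at 561 RPKM in control and 660 in knockout oocytes. Eif2b1 stood at 499 and 379 RPKM, Eif5a at 409 and 359, and Eif4a1, the main eIF4A helicase, at 139 and 149. In control MII oocytes the libraries of Eif1 (548 and 575 RPKM), Eif2b1 (484 and 514) and Eif5a (434 and 384) did not overlap. Eif6 dropped from the 5th place in control GV to the 34th in control MII oocytes, and Eef1d from the 12th to the 43rd, in the order of mean levels per length.

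**Figure D1:**
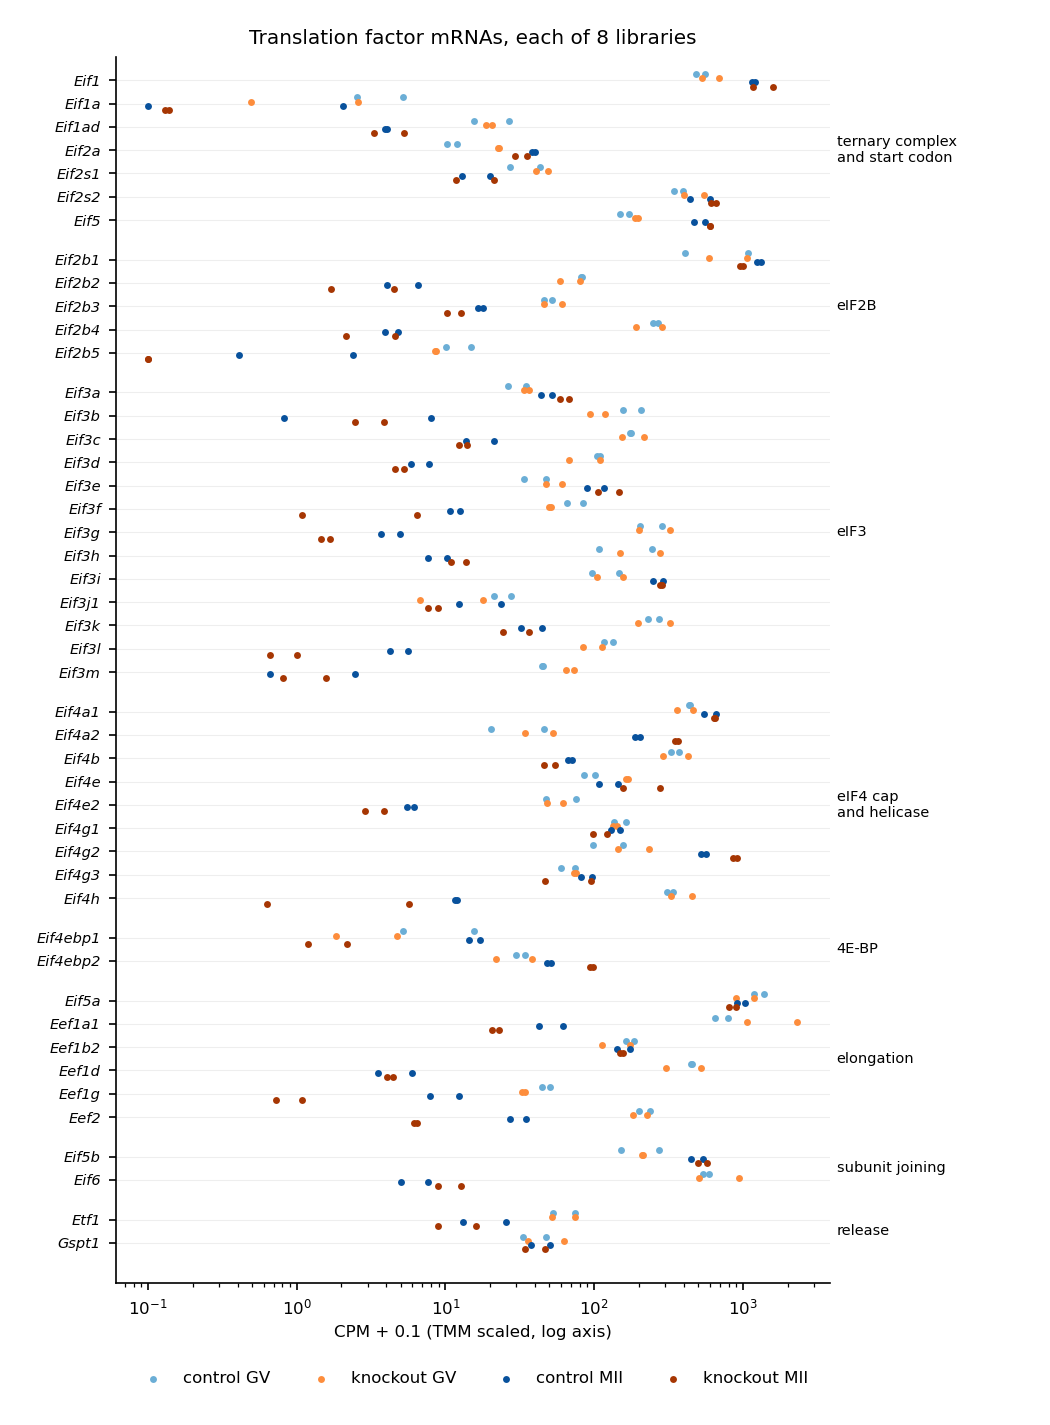
Level of each of the 46 translation factor mRNAs in each of the 8 libraries, as CPM + 0.1 on a log axis, grouped by role. Each point is 1 library, pale blue for control GV, orange for knockout GV, dark blue for control MII and brown for knockout MII. Eif5a, Eif2b1, Eif1 and Eif4a1 stay above 300 CPM in every library, whereas most eIF3 subunits, Eif6, Eef1d and Eef1a1 stand far lower at MII than at GV.

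The comparison of MII with GV shows how the mRNAs of the translation machinery changed while the oocyte matured. In control oocytes 8 of the 46 rose and 24 fell at an adjusted p below 0.05 (edgeR quasi-likelihood test, adjusted over 15572 genes). Among all genes tested, 21.2% rose and 27.9% fell, 49.1% in all. The members' median log2 fold change was -1.62, beside -0.20 over all genes. In knockout oocytes 9 rose and 25 fell, beside a background of 19.9% and 29.1% (49.0% in all), with a median of -2.22 beside -0.33. The genotypes share no library here. Of the genes that rose, 7 did so in both genotypes, out of 8 in control and 9 in knockout oocytes, and 24 fell in both, out of 24 and 25. The libraries of the 2 stages did not overlap for 41 of the 46 genes in control and for 38 in knockout oocytes, beside 77.9% and 76.9% of all genes tested.

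Among the 7 genes of the ternary complex and start codon selection, 3 rose and 2 fell in control oocytes, and 2 rose and 3 fell in knockout oocytes. The shares over all genes tested were 21.2% and 27.9% in control and 19.9% and 29.1% in knockout oocytes. Eif1ad was 1 of the 2 that fell in control oocytes (-2.435 ± 0.475). Eif1 was counted at 559 and 484 CPM in control GV oocytes and at 1150 and 1210 CPM in control MII oocytes, and it rose by 1.18 ± 0.29 on the log2 scale (SE; adjusted p = 0.00755). Eif5, the GTPase activator of eIF2, stood at 150 and 172 CPM at GV and at 465 and 555 CPM at MII, a rise of 1.67 ± 0.26. Eif2a, which encodes an alternative initiator tRNA carrier and not a subunit of eIF2, rose in control oocytes, from 11.8 and 10.1 CPM to 39.8 and 38.3 CPM (1.84 ± 0.32). In knockout oocytes Eif2a started at 22.7 and 22.4 CPM and reached 29.3 and 35.1 CPM, which did not pass (0.52 ± 0.31, adjusted p = 0.19). The difference between these 2 changes did not pass either (-1.32 ± 0.44, adjusted p = 0.29). The eIF2 subunits parted. Eif2s1, the alpha subunit that carries the regulatory phosphorylation, fell from 43 and 26.9 CPM to 12.8 and 19.9 CPM in control oocytes (-1.10 ± 0.41, adjusted p = 0.0478) and from 40.3 and 48.9 CPM to 11.7 and 21.1 CPM in knockout oocytes (-1.44 ± 0.41). Eif2s2, the beta subunit, stood at 343 and 395 CPM at GV and 442 and 604 CPM at MII in control oocytes and did not pass (0.50 ± 0.28, adjusted p = 0.165). Eif1a was near the floor. It had 110 and 58 reads in GV controls against 7 and 60 in GV knockouts, and 0 and 59 in MII controls against 1 and 1 in MII knockouts, so all its MII reads in control came from library b. Its call in knockout oocytes (adjusted p = 0.049) rests on these few reads.

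In eIF2B, the exchange factor of eIF2, 4 of the 5 subunits fell in both genotypes and 1 did not pass. Of all genes tested, 27.9% fell in control and 29.1% in knockout oocytes. The subunit that did not pass is Eif2b1, the alpha subunit, which is part of the regulatory core of eIF2B. It stood at 1080 and 406 CPM in control GV and 1250 and 1330 CPM in control MII oocytes (0.79 ± 0.44, adjusted p = 0.16). Eif2b4, the delta subunit, stood at 268 and 250 CPM at GV and at 3.85 and 4.72 CPM at MII in control oocytes (-5.92 ± 0.45, adjusted p = 1.54e-05). Eif2b2, the beta subunit, went from 81.6 and 82.6 CPM to 3.96 and 6.44 CPM (-3.98 ± 0.50). Eif2b3, the gamma subunit, fell least, from 45.6 and 52.3 CPM to 16.5 and 17.7 CPM (-1.51 ± 0.32). The catalytic epsilon subunit Eif2b5 fell from 9.98 and 14.8 CPM to 0.308 and 2.28 CPM in control oocytes (-3.25 ± 0.89, adjusted p = 0.0144). In knockout MII oocytes it had no read in either library, at least 83.8-fold below knockout GV oocytes (8.55 and 8.43 CPM) against a floor of 3 reads per library. The GV values of Eif2b1 differed between the libraries of a group more than those of the other 4 subunits. Of the exon bases of Eif2b4, 7.8% lie opposite Snx17, and reads there cannot be assigned because the strand setting of the counting is unknown.

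eIF3, the 13-subunit scaffold on the small ribosomal subunit, split in 2 directions. In control oocytes 9 subunits fell, 2 rose and 2 did not pass. In knockout oocytes 9 fell, 3 rose and 1 did not pass. Of all genes tested, 27.9% fell and 21.2% rose in control, and 29.1% and 19.9% in knockout oocytes. Eif3g, the RNA-binding subunit next to the helicase module, stood at 286 and 203 CPM at GV and 3.58 and 4.82 CPM at MII in control oocytes (-5.86 ± 0.39, adjusted p = 1.26e-05). Eif3b, the scaffold of the subunits near the mRNA entry channel, went from 157 and 207 CPM to 7.88 and 0.727 CPM (-5.41 ± 0.85). Eif3m went from 44.3 and 45.5 CPM to 2.35 and 0.562 CPM (-4.96 ± 0.63), and Eif3l from 134 and 116 CPM to 4.12 and 5.52 CPM (-4.69 ± 0.36). All MII libraries lay far below all GV libraries for these 4 genes. The other fallers were Eif3c, Eif3d, Eif3f, Eif3h and Eif3k, with log2 fold changes between -4.31 and -2.68. The 2 other called subunits went the other way. Eif3e rose from 33.6 and 47.2 CPM to 89.9 and 117 CPM (1.36 ± 0.31, adjusted p = 0.00508), and Eif3i from 147 and 96.7 CPM to 250 and 292 CPM (1.16 ± 0.30, adjusted p = 0.0104). Eif3a, the largest subunit, was at 26.2 and 34.8 CPM at GV and 43.7 and 52.0 CPM at MII in control oocytes (0.65 ± 0.29, adjusted p = 0.0884). In knockout oocytes Eif3a rose from 36.1 and 33.5 CPM to 67.7 and 58.9 CPM (0.86 ± 0.29, adjusted p = 0.0321), a call lost with library totals as the scaling (adjusted p = 0.064). Of the exon bases of Eif3d, 43.3% overlap the antisense gene Gm17638, so its values are uncertain.

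Among the 9 eIF4 genes 2 rose and 3 fell in both genotypes. Of all genes tested, 21.2% rose and 27.9% fell in control oocytes, and 19.9% and 29.1% in knockout oocytes. Eif4a2, the second eIF4A helicase, showed the largest rise of all 46 genes. It stood at 20.2 and 45.8 CPM in control GV and at 202 and 189 CPM in control MII oocytes (2.56 ± 0.40, adjusted p = 0.000505), and at 34.0 and 52.9 CPM and 350 and 363 CPM in knockout oocytes (3.03 ± 0.40). Eif4a1, its close relative, was at 443 and 436 CPM at GV and 655 and 550 CPM at MII in control oocytes and did not pass (0.46 ± 0.26). Eif4g2, an eIF4G relative without the eIF4E-binding part, rose from 97.4 and 157 CPM to 523 and 566 CPM (2.10 ± 0.34). The scaffold Eif4g1 did not pass, at 164 and 135 CPM at GV and 150 and 130 CPM at MII in control oocytes (-0.10 ± 0.26, adjusted p = 0.783). The cap-binding protein Eif4e was at 85.0 and 101 CPM at GV and 108 and 145 CPM at MII (0.44 ± 0.32, adjusted p = 0.271). Its repressive relative Eif4e2 fell from 75.2 and 47.6 CPM to 6.00 and 5.39 CPM (-3.43 ± 0.38). The helicase cofactors fell as well, Eif4b from 371 and 327 CPM to 71.1 and 66.2 CPM (-2.35 ± 0.29) and Eif4h from 307 and 339 CPM to 11.5 and 11.9 CPM (-4.78 ± 0.76). Of the 4E-BPs, neither passed in control oocytes. Eif4ebp2 rose in knockout oocytes, from 21.7 and 38.3 CPM to 94.1 and 98.0 CPM (1.68 ± 0.33, adjusted p = 0.0019), and stood at 29.5 and 34.4 CPM and 51.4 and 47.8 CPM in control oocytes (0.63 ± 0.32, adjusted p = 0.122). The difference between these 2 changes did not pass (1.04 ± 0.45, adjusted p = 0.42).

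The 2 factors of subunit joining moved in opposite directions. Eif5b, the GTPase that joins the subunits, stood at 152 and 274 CPM at GV and 449 and 539 CPM at MII in control oocytes (1.22 ± 0.32, adjusted p = 0.00957). Eif6, which keeps the large subunit from joining too early, stood at 587 and 542 CPM at GV and 7.54 and 4.96 CPM at MII (-6.50 ± 0.45, adjusted p = 1.31e-05). Of the exon bases of Eif5b, 16.8% lie opposite Rev1. Of the 6 elongation genes 4 fell in both genotypes, beside 27.9% of all genes tested in control and 29.1% in knockout oocytes. Eef1d, the exchange factor subunit of eEF1, fell most of all members in control oocytes, from 447 and 454 CPM to 3.42 and 5.85 CPM (-6.60 ± 0.43, adjusted p = 1.25e-05). Eef1a1, which carries aminoacyl-tRNA to the ribosome, fell from 792 and 646 CPM to 42.2 and 62.0 CPM (-3.79 ± 0.42) in control oocytes and from 2310 and 1070 CPM to 20.4 and 22.7 CPM (-6.30 ± 0.47) in knockout oocytes. Eef2, the translocase, fell by 2.83 ± 0.28 and Eef1g by 2.23 ± 0.39 on the log2 scale in control oocytes. Eef1b2, the other exchange factor subunit, did not follow Eef1d: it was at 164 and 186 CPM at GV and 142 and 175 CPM at MII (-0.15 ± 0.28, adjusted p = 0.697). Eif5a did not pass either (-0.41 ± 0.28, adjusted p = 0.248). Of the release factors, Etf1, which encodes eRF1, fell from 53.0 and 74.7 CPM to 13.1 and 25.6 CPM (-1.72 ± 0.43, adjusted p = 0.00822). Its partner Gspt1, which encodes eRF3a, stood at 33.1 and 47.1 CPM and at 50.4 and 37.7 CPM (0.14 ± 0.36).

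Leaving out each library in turn kept 26 of the 32 calls in control and 28 of the 34 in knockout oocytes in all 8 fits. In control oocytes Eif1 was lost without control MII library b, Eif3i without that library or control GV replicate 2, and Eif5b without that library or control GV replicate 1, with log2 values of at least 0.85 and adjusted p of at most 0.0799. Eif2s1 was lost in 4 of the 8 fits (adjusted p up to 0.282), Etf1 without control GV replicate 2 or control MII library a (up to 0.0588) and Eif2b5 without control GV replicate 2 (0.0806). Some called values moved by over 1.5 times with a single library while they stayed called. Without control MII library a or b, the control change of Eif3b came to -7.99 or -4.60, that of Eif3m to -6.34 or -4.33 and that of Eif2b5 to -2.47 or -5.38. Without control GV replicate 2 the rise of Eif4a2 came to 3.27, without control GV replicate 1 the fall of Eif3h to -3.59, and without control MII library b that of Etf1 to -2.35. In knockout oocytes Eif1 (adjusted p up to 0.0522), Eif2s1 (0.0832), Eif3a (0.129), Eif3e (0.0657) and Eif3i (0.0866) were lost in 1 to 3 fits, each without a knockout library, and Eif1a in 6 (0.267). The fall of Eef1a1 in knockout oocytes came to -5.66 without knockout GV replicate 1. That of Eif4h (-6.96 with all libraries) came to -9.55 without knockout MII replicate 1 and to -6.10 without replicate 2. Without knockout MII replicate 1, that of Eif2b4 came to -6.91 in place of -6.18. Over the 8 fits the knockout change ranged from -5.71 to -2.97 for Eif3f and from -5.48 to -3.95 for Eif2b2.

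**Figure D2:**
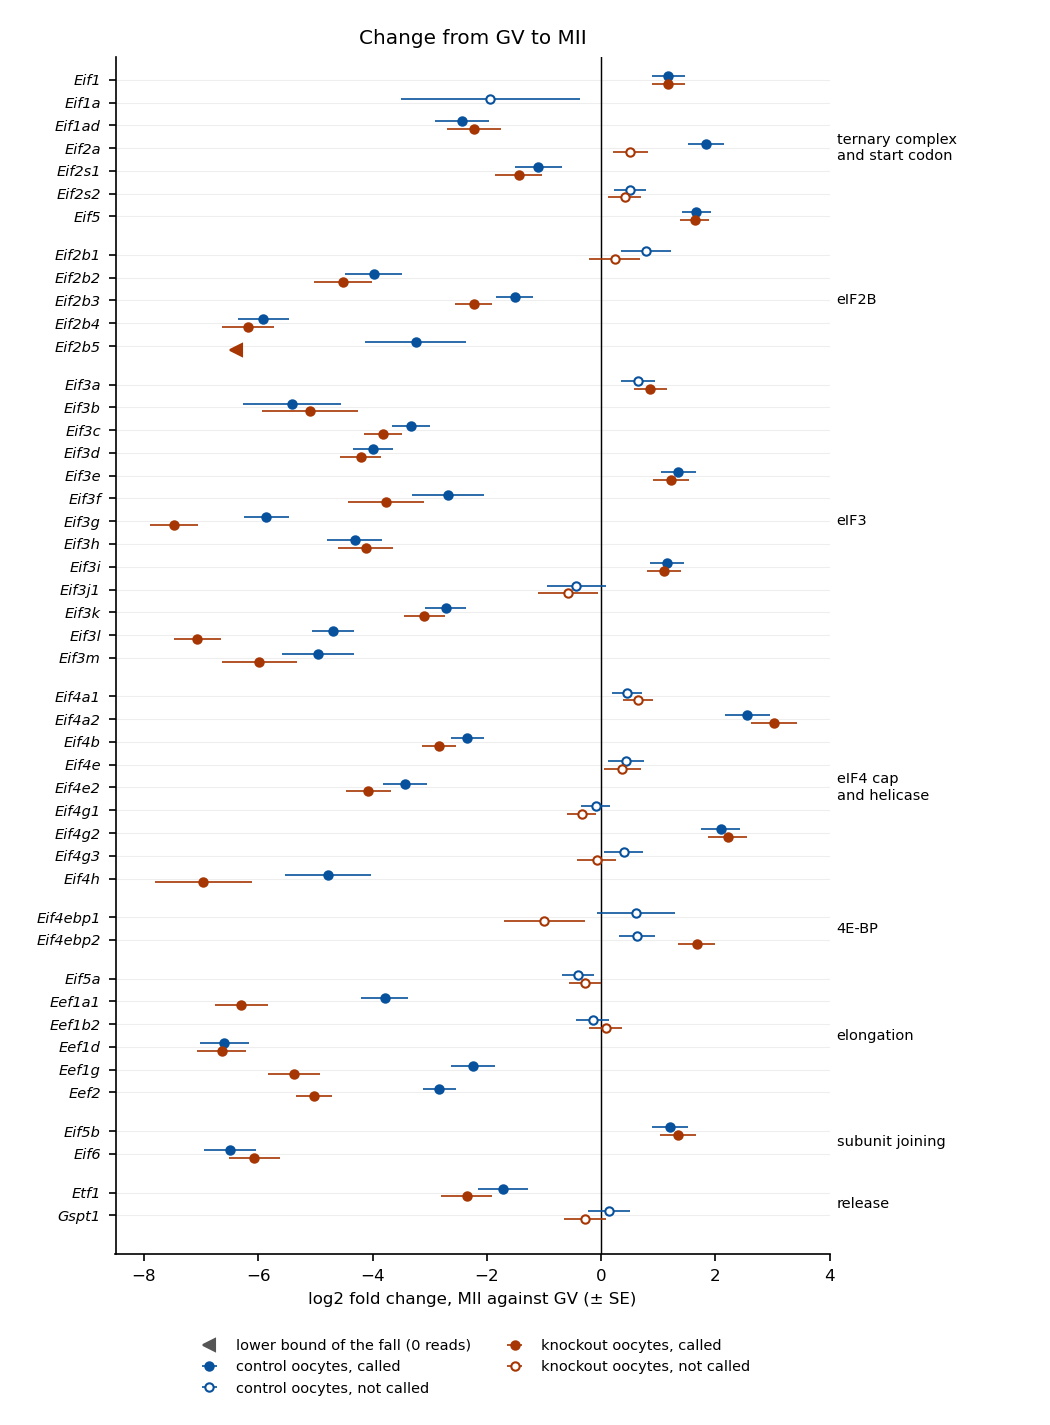
Log2 fold change from GV to MII with its SE for each factor, by role, in control (blue) and knockout (brown) oocytes. Filled points passed at an adjusted p below 0.05, the triangle marks a lower bound where knockout MII oocytes had 0 reads, and Eif1a is left out for knockout oocytes because it had 1 read per MII library. Eif4a2, Eif4g2, Eif5, Eif3e, Eif3i, Eif1 and Eif5b lie to the right in both genotypes, and Eef1d, Eif6, Eif2b4 and Eif3g lie farthest left among the control values.

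The ends of these mRNAs are shown because cytoplasmic polyadenylation during maturation depends on short motifs there. The cytoplasmic polyadenylation element, searched as TTTTAT or TTTTAAT in the last 100 bases of the annotated 3′ UTR on the transcript's strand, was present in 2 of the 42 members with such a window, Eif1a and Eef1a1. That is 4.8%, beside 3513 of 19778 protein-coding genes (17.8%). None of 7 members that rose in control oocytes had it, and 1 of 21 that fell did. Among all tested protein-coding genes with a window, 31.2% of those that rose and 9.4% of those that fell had it. The nuclear polyadenylation signal, AATAAA or ATTAAA, was in 32 of 42 members (76.2%), beside 78.6% of genes. Below, 3 mRNAs that rose and 3 that fell are shown around that signal, which is in capitals, and last Eef1a1 around its polyadenylation element, in capitals. The sequences are 30 bases each, from GENCODE M21 transcripts on mm10.
Eif4a2: gtttgaatgttaAATAAAattgtatattca
Eif5b: ttgatgctcagaAATAAAagtttcaggaac
Eif3e: ttggagaatttgAATAAAattggctatgat
Eif6: gtgccccaccccATTAAAggactgcctccc
Eef1d: tttttttttgagAATAAAttttgctgtata
Eif3h: tttctagccaatAATAAAactttaattggt
Eef1a1: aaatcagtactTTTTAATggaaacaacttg
They lie at chr16:23113913-23113942 (plus strand), chr1:38055547-38055576 (plus), chr15:43250061-43250090 (minus), chr2:155819841-155819870 (minus), chr15:75894813-75894842 (minus), chr15:51786569-51786598 (minus) and chr9:78478506-78478535 (minus), all in 3′ UTRs. In the mRNA the signal of Eif4a2 ends 16 bases before the annotated end, that of Eif5b and Eif3e 15 bases, that of Eif6 21, that of Eef1d 25 and that of Eif3h 23, and the element of Eef1a1 69 bases. The annotated 3′ UTR had a median of 1586 bases (141 to 4942) in the 7 members that rose, 500 bases (111 to 2676) in the 21 that fell and 1425 bases (450 to 5306) in the 14 others. A motif match describes the annotated end only, and the ends used in these oocytes were not measured.

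At GV, the comparison of knockout with control oocytes asks what loss of BAF250a changed before meiosis resumed. None of the 46 genes passed (edgeR, adjusted p below 0.05), and 4 had an unadjusted p below 0.05, beside 1687 of 15572 genes tested. DESeq2 also called 0. A fit with a replicate block called 6, which are named in the last section, though replicates of the 2 groups share only a number. Of all genes tested, 0.989% passed in the main edgeR fit, 0.597% higher and 0.392% lower in the knockout. The block fit has its own share, which is not given here. The members' median log2 fold change was 0.04, beside 0.00 over all genes, and the extremes were -1.69 for Eif4ebp1 and 1.24 for Eef1a1. The libraries of the 2 groups did not overlap for 15 of the 46, 6 higher and 9 lower in the knockout, which is 32.6% beside 46.4% of all genes. Eef1a1 stood at 792 and 646 CPM in control and at 2310 and 1070 CPM in knockout oocytes (1.24 ± 0.38, adjusted p = 0.21), both knockout libraries above both controls. With every gene of at least 1 read in the fit, it was called (adjusted p = 0.00846). Eif2a stood at 11.8 and 10.1 CPM against 22.7 and 22.4 CPM (1.04 ± 0.32, adjusted p = 0.205). Eif4e stood at 85.0 and 101 CPM against 169 and 164 CPM (0.84 ± 0.32, adjusted p = 0.343). For these 3 genes the groups did not overlap, and none passed in this fit. Eif4ebp1, the 4E-BP most studied as an mTOR target, stood at 15.4 and 5.11 CPM in control and 4.64 and 1.73 CPM in knockout oocytes (-1.69 ± 0.70, adjusted p = 0.405). The key factors Eif2s1, Eif2b5, Eif3a, Eif4g1, Eif5b, Eef2 and Etf1 had log2 fold changes between -0.54 and 0.35, none of which passed. The summed level of the granulosa and cumulus markers given above, lower in both knockout GV libraries, moved with the groups of this comparison. Of the 16 markers, 10 had a lower and 4 a higher mean in knockout GV oocytes, and 2 were at 0 in both groups. The blood and immune sums overlapped (4.26 and 8.53 CPM in control, 5.6 and 6.21 CPM in knockout). The part of somatic cells was not tested. Scaling by library totals instead moved the median of all genes by -0.27 at GV, by -0.16 in the control maturation comparison and by 0.21 in the difference between stages.

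At MII, 6 of the 46 genes were lower in knockout than in control oocytes and none was higher (edgeR, adjusted p below 0.05). Of all genes tested, 5.14% passed, 3.44% lower and 1.70% higher. Another 8 members had an unadjusted p below 0.05, 14 in all, beside 3450 of 15572 genes tested. The members' median log2 fold change was -0.34, beside -0.01 over all genes. The libraries did not overlap for 27 of 46 (58.7%; 9 higher and 18 lower), beside 46.4% of all genes. The 6 are Eef1g and Eef2 of elongation, Eif3l and Eif3g of eIF3, Eif2b5 of eIF2B and the 4E-BP gene Eif4ebp1. Each library was left out in turn, in 8 fits. The log2 fold change was then -8.83 to -5.9 for Eif2b5, -1.68 to -1.21 for Eif3g and -3.82 to -2.84 for Eif4ebp1. Each of these 3 genes lost its call in most of the fits, as given below. Eef1g, Eef2 and Eif3l were called in all 8.

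**Figure D3:**
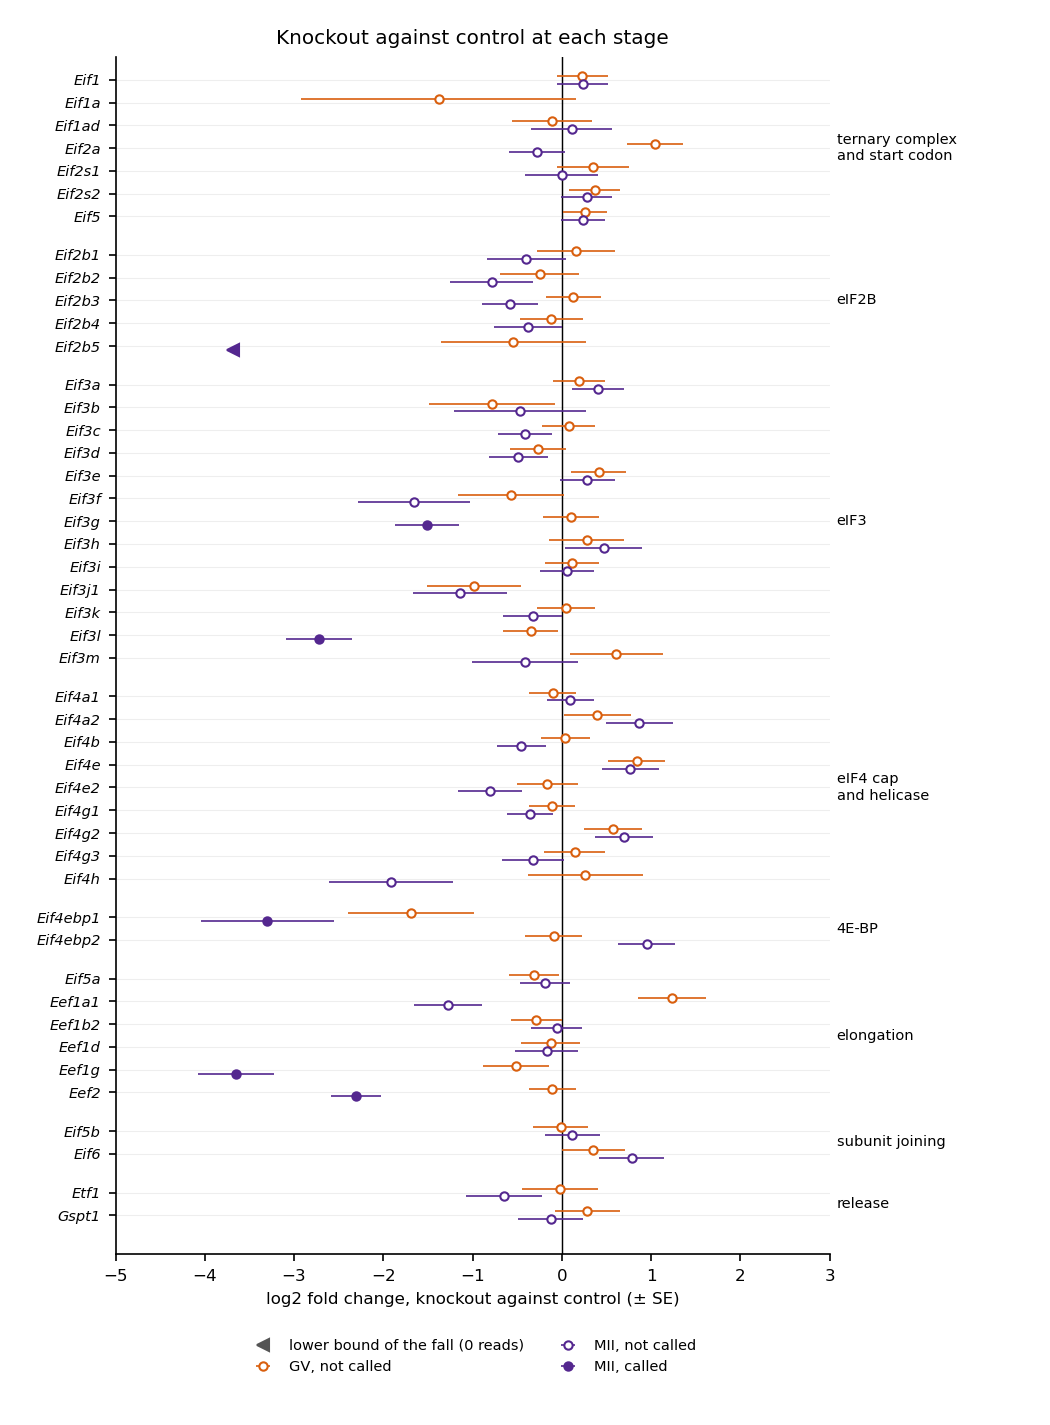
Log2 fold change of knockout against control oocytes with its SE for each factor, by role, at GV (orange) and MII (purple). Filled points passed at an adjusted p below 0.05 and the triangle marks the lower bound of Eif2b5, which had 0 reads in knockout MII oocytes; Eif1a is left out at MII. No GV value passed, and the MII values that did all lie left of 0.

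Eef2 showed 26.9 and 34.7 CPM in control and 6.05 and 6.38 CPM in knockout MII oocytes, a fall of 2.31 ± 0.28 on the log2 scale (adjusted p = 0.00256). At GV its levels had overlapped (236 and 201 against 226 and 181 CPM). Eef1g, the scaffold subunit of the eEF1 exchange complex, showed 12.3 and 7.83 CPM against 0.626 and 0.981 CPM (-3.65 ± 0.43, adjusted p = 0.00211). At GV it had stood at 50.5 and 44.5 against 34.2 and 32.5 CPM (-0.51 ± 0.37, adjusted p = 0.74). Both genes fell with maturation in both genotypes, and the knockout MII libraries were the lowest of all 8. Eef1a1 was at 42.2 and 62.0 CPM in control and 20.4 and 22.7 CPM in knockout MII oocytes and did not pass (-1.27 ± 0.38, adjusted p = 0.0863). It was called with DESeq2 (adjusted p = 0.0272), with library totals as the scaling (0.0264) and with only the MII libraries in the fit (0.0319). Eef1b2, Eef1d and Eif5a had log2 fold changes of -0.06, -0.17 and -0.19.

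Eif3l, a subunit at the periphery of eIF3 that is dispensable in some cells, showed 4.12 and 5.52 CPM in control and 0.566 and 0.906 CPM in knockout MII oocytes (-2.72 ± 0.37, adjusted p = 0.0043). The call was lost with only the MII libraries in the fit (adjusted p = 0.162). Eif3g showed 3.58 and 4.82 CPM against 1.58 and 1.36 CPM (-1.51 ± 0.35, adjusted p = 0.0384). It was kept in 1 of the 8 leave-outs, that of knockout GV replicate 2, with adjusted p up to 0.165, and was lost with DESeq2 size factors (0.05) and with only the MII libraries (0.466). Both genes were low in every MII library. The other 11 eIF3 subunits had log2 fold changes from -1.66 (Eif3f) to 0.47 (Eif3h) and did not pass.

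Eif4ebp1 showed 17.1 and 14.4 CPM in control and 2.09 and 1.09 CPM in knockout MII oocytes (-3.30 ± 0.74, adjusted p = 0.0336). Unlike the other 5, it was about as abundant in control MII as in control GV oocytes, and the knockout libraries were below the controls at GV too. Its call was kept only without control GV replicate 2, and adjusted p reached 0.13 without knockout MII replicate 2. Its paralog Eif4ebp2 stood at 51.4 and 47.8 CPM in control and 94.1 and 98.0 CPM in knockout MII oocytes, the highest log2 fold change of the 46 and not past the threshold (0.95 ± 0.32, adjusted p = 0.117). With only the MII libraries in the fit it was called (adjusted p = 0.0388). Their target Eif4e was at 108 and 145 CPM against 155 and 278 CPM (0.77 ± 0.32, adjusted p = 0.192). Eif2b5 had 8 and 69 reads in MII controls against 0 and 0 in MII knockouts, at least 12.8-fold lower against the floor of 3 reads per library (adjusted p = 0.0226). The bound rests on control library b, the one with 52.2 CPM of blood and immune markers, which held 89.6% of the control reads. Library a alone was 3.04-fold over the floor. The call was lost in 6 of 8 leave-outs (adjusted p up to 0.0722), though not without library b, and with only the MII libraries in the fit (0.122). The sums of granulosa and cumulus markers were also lower in knockout MII libraries, and their part was not tested.

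**Figure D4:**
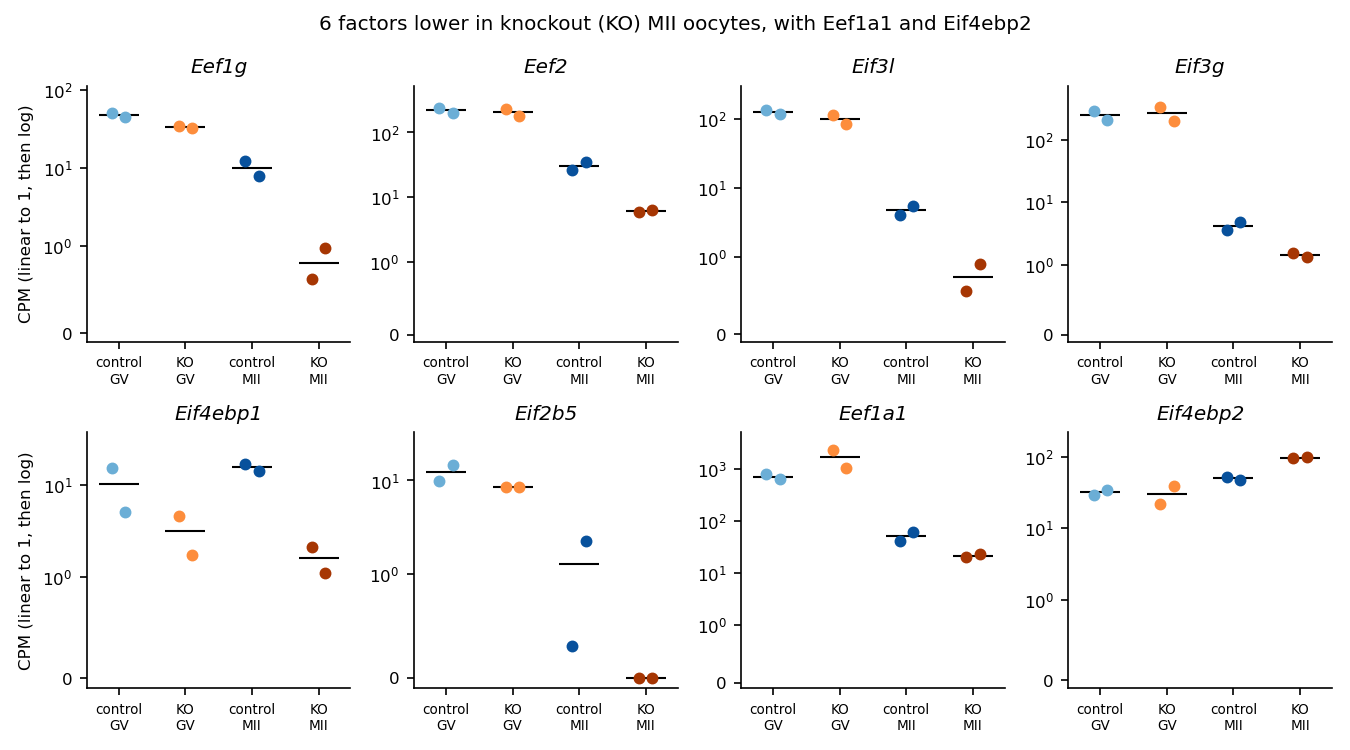
CPM of the 6 genes lower in knockout MII oocytes and of Eef1a1 and Eif4ebp2, in each library (points) with the group mean (line), on an axis that is linear to 1 CPM and logarithmic above. In knockout (KO) MII oocytes Eef1g stood at 0.626 and 0.981 CPM and Eif2b5 at 0, whereas Eif4ebp2 stood highest there.

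Whether the knockout effect differed between MII and GV was tested directly. None of the 46 passed (edgeR), and 0.0835% of all genes passed (0.00642% higher, 0.0771% lower). Of the 46, 9 had an unadjusted p below 0.05, beside 1787 of 15572 genes tested. DESeq2 called 5, all with a more negative knockout effect at MII than at GV. The shares over all genes given here are those of the main edgeR fit and not a background for counts from other fits. The differences with the lowest unadjusted p were those of Eef1g (-3.14 ± 0.55, adjusted p = 0.0685), Eef2 (-2.20 ± 0.38, adjusted p = 0.0685), Eif3l (-2.37 ± 0.48, adjusted p = 0.0927) and Eef1a1 (-2.51 ± 0.54, adjusted p = 0.113). The fitted values of Eif2b5 and Eif1a were larger and rest on knockout MII libraries with 0 or 1 read. For Eef1a1 the values lay above 0 at GV and below 0 at MII, neither past the threshold. With a filter of a mean of at least 5 CPM, 2 members passed, among them Eef2 (adjusted p = 0.0456), and without a filter 6. Without knockout MII replicate 1, 1 passed.

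Processed pseudogenes, which are copies of mRNAs inserted into the genome, can take or lend reads of their parent. Of 112 annotated pseudogene copies of the members in the table, 56 had reads. Eef1g and its 10 copies stood out. The copies held 61 and 62 reads beside 1088 and 1062 of the gene in control GV oocytes (5.31% and 5.52% of the sum). Their share was 10.1% and 18.6% in control MII oocytes. In knockout MII oocytes they held 28 and 94 reads beside 21 and 26 (57.1% and 78.3%). Those 28 and 94 reads were all on Gm5723, which is 88.3% identical to the Eef1g mRNA. In control GV oocytes 34 and 36 reads were on Gm4366, at 99.6% identity, and 27 and 24 on Gm5723. With the copies added, Eef1g stood at 13.7 and 9.61 CPM in control and 1.46 and 4.53 CPM in knockout MII oocytes, and the fall was -1.97 ± 0.49 (adjusted p = 0.0485) in place of -3.65. Eif3h and its 2 copies showed 1.89% to 2.49% of reads in the copies at GV and 29.8% to 55.8% at MII, all on AC122253.2, in both genotypes. With these added, Eif3h still fell with maturation, by 3.43 ± 0.44 in control oocytes in place of 4.31. For Eef2, 19.4% of the reads were in copies in 1 knockout MII library and at most 2.24% elsewhere, and the fall at MII with copies added was -2.16 ± 0.28 (adjusted p = 0.00364). No other member exceeded 2.05% in any library.

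**Figure D5:**
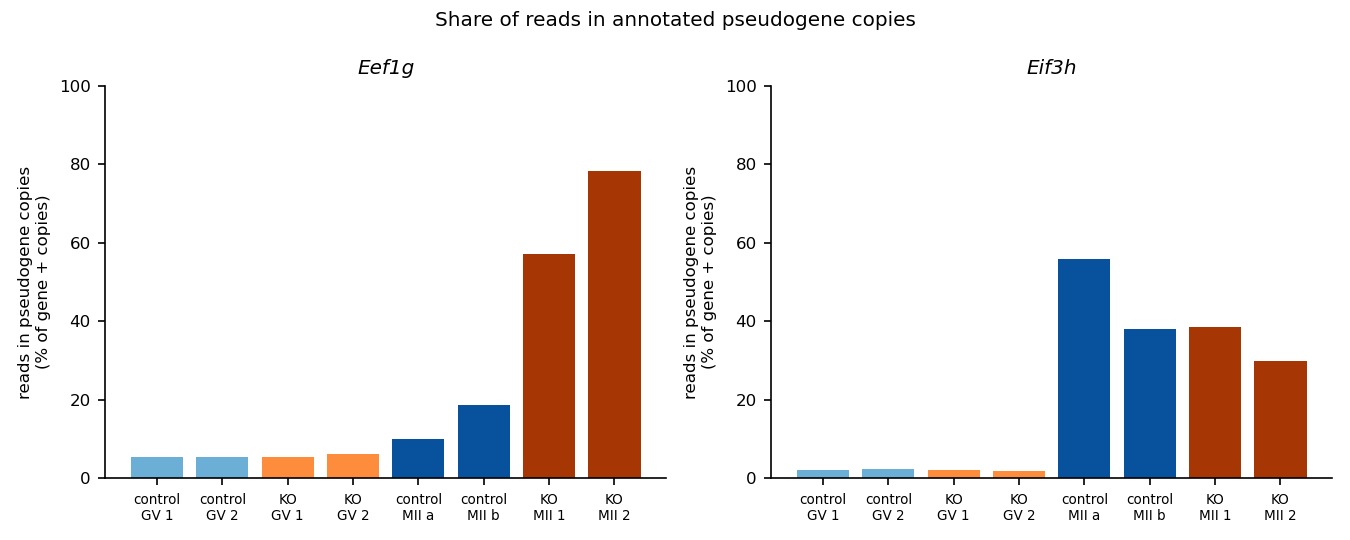
Reads in annotated pseudogene copies as a percent of the reads in the gene and its copies, for Eef1g (left) and Eif3h (right) in each of the 8 libraries; bars start at 0. For Eef1g the share was 57.1% and 78.3% in knockout (KO) MII oocytes and at most 18.6% elsewhere, and for Eif3h it was raised in all 4 MII libraries.

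Eif3j1 and Eif3j2 are near-identical copies of the loosely bound j subunit of eIF3, and only Eif3j1 is a member. Eif3j1 was at 21.1 and 27.5 CPM in GV controls against 6.68 and 17.8 CPM in GV knockouts, and at 12.3 and 23.7 CPM against 7.57 and 8.83 CPM at MII, and no comparison passed. Eif3j2 was at 0.743 and 1.80 CPM against 9.06 and 13.5 CPM at GV, and at 0.615 and 2.84 CPM against 18.2 and 21.9 CPM at MII. It was higher in knockout than in control MII oocytes (3.52 ± 0.76, adjusted p = 0.0291), a call lost in 6 of 8 leave-outs (adjusted p up to 0.0681, with values of 2.84 and 5.07 without control MII library a or b), and did not pass at GV (3.14 ± 0.76, adjusted p = 0.107). The reads of both genes together gave 21.9 and 29.3 CPM in controls against 15.7 and 31.3 CPM in knockouts at GV, and 13 and 26.5 CPM against 25.8 and 30.7 CPM at MII. The sum did not pass at GV (-0.12 ± 0.45, adjusted p = 0.99) or at MII (0.51 ± 0.45, adjusted p = 0.563). Reads of the 2 genes may be split between them by the alignment, and 19% of the exon bases of Eif3j1 lie opposite Spg11.

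Other genes of the pathway came from lists of known factors and regulators. Of 20 tested further initiation factors, 2 rose and 11 fell with maturation in control oocytes, and 2 rose and 10 fell in knockout oocytes. The shares over all genes tested were 21.2% and 27.9% in control and 19.9% and 29.1% in knockout oocytes. Eif4e1b, the oocyte form of eIF4E, fell from 1870 and 1690 CPM to 380 and 378 CPM in control oocytes (-2.23 ± 0.30) and from 1850 and 1350 CPM to 694 and 891 CPM in knockout oocytes (-1.01 ± 0.29). Eif4e3, another eIF4E relative, rose from 206 and 211 CPM to 864 and 849 CPM (2.04 ± 0.26) in control oocytes. Of the regulators of poly(A)-binding protein, Paip1, which promotes translation, rose from 40 and 30 CPM to 260 and 323 CPM (3.06 ± 0.34). Paip2, which opposes translation, fell from 175 and 200 CPM to 8.54 and 8.95 CPM (-4.42 ± 0.33). Paip2b, on the same list, did not pass, at 203 and 190 CPM at GV and 167 and 182 CPM at MII (-0.17 ± 0.26, adjusted p = 0.618). Eif1ax, the X-linked eIF1A gene, fell from 131 and 225 CPM to 9.38 and 4.79 CPM (-4.65 ± 0.52). In knockout against control MII oocytes, 1 of the 20 was called, Eif3j2, beside 5.14% of all genes tested.

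Of 10 tested eIF2 kinases, phosphatases and their targets, 3 rose and 3 fell in control and 2 rose and 3 fell in knockout oocytes during maturation. None was called between genotypes. For this list and the mTOR list below, the maturation shares over all genes were 21.2% and 27.9% in control and 19.9% and 29.1% in knockout oocytes. Eif2ak4, the eIF2 kinase GCN2 that senses uncharged tRNA, rose from 15.7 and 19.6 CPM to 95.7 and 104 CPM in control oocytes (2.50 ± 0.32). Atf4, whose mRNA is translated when eIF2 is phosphorylated, fell from 868 and 639 CPM to 70.8 and 76.5 CPM (-3.36 ± 0.31). Of 18 genes of mTOR and MNK signalling, 7 rose and 3 fell in control and 7 rose and 2 fell in knockout oocytes. Rheb, the GTPase that activates mTOR, rose from 58.3 and 59.1 CPM to 241 and 311 CPM (2.23 ± 0.28), and Tsc2, its inhibitor, fell from 359 and 313 CPM to 5.08 and 7.43 CPM (-5.75 ± 0.53). Deptor, which inhibits mTOR, rose from 194 and 183 CPM to 721 and 774 CPM (1.99 ± 0.27). The others that rose in control oocytes were Rictor, Rps6kb1, Mknk2, Akt1 and Akt2, and the others that fell were Rps6 and Akt1s1, which encodes an mTORC1 inhibitor. Between genotypes 1 of the 18 was called at MII, the ribosomal protein gene Rps6, at 13.1 and 23.5 CPM in control and 4.08 and 2.57 CPM in knockout oocytes (-2.45 ± 0.41, adjusted p = 0.0106, and 0.067 without knockout MII replicate 2). Between genotypes at MII, 5.14% of all genes tested were called, a share for the mTOR list above as well. Of 12 tested genes of elongation, release and ribosome rescue, 2 were called at MII. Dph6, which completes the diphthamide modification of eEF2, was at 420 and 484 CPM in control and 937 and 1180 CPM in knockout MII oocytes (1.23 ± 0.27, adjusted p = 0.0325). Dohh, which hydroxylates eIF5A, had 15 and 5 reads against 0 and 0, at least 3.66-fold lower (adjusted p = 0.0491). Of its control reads 75% came from library a, and library b alone was 1.63-fold over the floor. Both calls were lost in several leave-outs, with adjusted p up to 0.155 for Dph6 without control MII library a and 0.115 for Dohh without control GV replicate 1. Dohh was lost without control MII library a too (0.109), with library totals (0.0512) and with only the MII libraries in the fit (0.366). At GV none of these lists had a call between genotypes.

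Several elongation factor mRNAs are known to start with a 5′ terminal oligopyrimidine tract, as ribosomal protein mRNAs do, which puts their translation under mTOR control. On a list of 14 such mRNAs outside the ribosomal proteins, 9 are members. At MII, 2 of the 14 were lower in the knockout, Eef1g and Eef2, and none was higher, with a median of -0.28. The 37 members outside the list had 4 lower and none higher, with a median of -0.33. Of 81 tested cytoplasmic ribosomal protein genes, 34 were lower and none higher, with a median of -1.72. Over all genes tested, 3.44% were lower and 1.70% higher in knockout MII oocytes, with a median of -0.01. During maturation in control oocytes 3 of the 14 rose and 7 fell, and of the ribosomal protein genes 3 rose and 75 fell. Over all genes tested, 21.2% rose and 27.9% fell. The rise of Eif3e, which is on the list, went against the fall of Eef1d, Eef1a1, Eef2, Eef1g, Eif3f, Eif3h and Eif4b. The tract was looked for at RefSeq starts (GRCm38.p6) as a C followed by at least 4 more C or T bases on the gene's strand. It was found in 1 of 35 members with an entry, Eif3f, and in 448 of 16522 protein-coding genes (2.7%). The window from 40 bases before to 20 bases after the Eif3f start, at chr7:108934375-108934434 on the plus strand, is shown for that reason, with its tract of 11 bases in capitals.
Eif3f: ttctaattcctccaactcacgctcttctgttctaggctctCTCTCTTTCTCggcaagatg
Eif3f stood at 65.2 and 83.6 CPM in control GV and 10.7 and 12.5 CPM in control MII oocytes (-2.68 ± 0.63), and at 6.31 and 0.981 CPM in knockout MII oocytes (-1.66 ± 0.62 against control MII, adjusted p = 0.154). Of the 5 listed members with an entry, the other 4 had no such tract at the annotated start, and the starts used in oocytes were not measured.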

How the data were processed

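The authors deposited read counts per Ensembl gene in 1 table, without normalization. The submitters' processing notes name Bowtie2, HTSeq, edgeR and the build mm10. Versions, annotation release and strand setting: not given in the sources used here. Reads assigned to no gene (22% to 35.1%) were left out. Per the file headers, 2 control MII columns carry the same name, so both were used as control MII, libraries a and b, with no replicate number.

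The fit used edgeR 4.0.16 (R 4.3.3) over all 8 libraries, 1 term per group, after filterByExpr (15572 genes) and TMM scaling, with 4 residual degrees of freedom. The 5 contrasts took the two-sided quasi-likelihood test, adjusted by the Benjamini-Hochberg method within the contrast over all genes, and called at an adjusted p below 0.05. The SE is the size of the log2 fold change over the root of F. CPM of single genes other than the cell type markers are relative to reads in tested genes, TMM scaled. CPM of the markers, singly and summed, are relative to all gene reads, unscaled. A floor of 3 reads per library lay between 0.0901 and 0.153 CPM and covers counting error only. RPKM used merged exons of GENCODE M21, which names 54809 entries. Copies were annotated pseudogenes matching a member's mRNA best (BLAST+ 2.17.0, at least 80% identity over 50% of the copy). The fit was tested on simulated counts, with changes set in genes of a mean of at least 5 CPM. Between genotypes at GV, 5.97% of log2 changes of 1, 58.2% of changes of 2 and 100% of changes of 4 were recovered. In the difference between stages these were 1.49%, 19.4% and 84.8%. Of the simulated calls, 4.39% at GV and up to 7.69% elsewhere were false. Changes of 1 on the log2 scale were thus mostly missed.

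Named genes were Arid1a, members called in a knockout comparison, the 10 largest changes in each maturation comparison, the extremes of each comparison and of level, 10 key factors, and companion genes called in a knockout comparison; Eif2a, Eif4a1, Eif2s2, Gspt1 and the other genes given for contrast were added after their values were seen. Members and lists were chosen with earlier results of these data known. Alternatives were other scalings, filters, DESeq2 1.42.0, fits of the compared groups, a replicate block, each library left out, and copies added; adding Eif3j2 reads to Eif3j1 was chosen after seeing the data.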

Additional observations from a re-analysis of the deposited data

How the results depend on the processing

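Of 81 recomputed counts of called members, 71 stayed within 1.5 times the reported count. The shares over all genes given above are those of the main fit and not of these recounts. With no filter on low counts, 1 member was called between genotypes at GV, 10 at MII and 6 in the difference between stages, in place of 0, 6 and 0; with a 5 CPM minimum on the mean, 2 were called in the difference, and with DESeq2 5. At MII, leaving out each library gave 3 to 5 calls between genotypes, and in the difference 0 to 1. The cause was not tested, except that a left-out library means fewer samples. Of 45 called values of named genes, 31 kept direction and call under every alternative, and none of the 45 reversed.

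Values near 0 that no setting called changed sign. With library totals as the scaling, Eif3a at GV came to -0.11, Eif2s1 at MII to -0.0863 and the difference of Eif4e to 0.13. Without a filter, Eif5b and Etf1 at GV came to 0.00962 and 0.00631, and with the 5 CPM minimum Eif2s1 at MII to -0.0182. Leaving out single libraries gave ranges at GV of -0.27 to 0.0459 for Eef2, -0.000625 to 0.41 for Eif3a, -0.25 to 0.0359 for Eif4g1, -0.38 to 0.47 for Eif5b and -0.30 to 0.25 for Etf1. The range was -0.42 to 0.40 for Eif2s1 at MII, -0.24 to 0.0521 for Eif4g1 in control maturation and -0.0899 to 0.70 for Eif4e in knockout maturation. In the difference it was -0.48 to 0.30 for Eif4e, -0.00615 to 0.41 for Eif3a, -0.35 to 0.49 for Eif5b and -0.76 to 0.0569 for Eif2s1.

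Replicate numbers share only a number: deviations of same-numbered libraries correlated at 0.119 between control GV and knockout GV and at -0.02 between knockout GV and knockout MII. With the replicate block, 6 members were called at GV in place of 0, higher Eef1a1 (1.14), Eif2a (1.05) and Eif4e (0.84) and lower Eif4ebp1 (-1.65), Eif3j1 (-1.13) and Eif3b (-0.78), with adjusted p of 0.000784 to 0.0429, and 32 in knockout maturation in place of 34; Eif5b at GV came to 0.0484. No paired analysis was possible for control MII because its columns carry no replicate number. Members near the floor, Eif1a and Eif2b5 at MII, are limited by depth.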
